A study of Mus musculus with 12 samples.

Results

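The genes of the G1/S transition and of DNA replication were followed in mouse lines that descend from embryonic fibroblasts (MEF). They are 37 of the 37310 genes in the deposited count table, chosen by listed symbols that were matched to the Ensembl identifiers of the table. They make up 6 roles: 4 genes of E2F and cyclin E, 10 of origin recognition and licensing, 6 of helicase activation, 10 of the clamp, polymerases and lagging strand, 3 of nucleotide synthesis, and 4 of chromatin assembly, uracil removal and histone mRNA. Of the 37, 36 passed the filter on low counts. Cdt1, which loads the MCM helicase together with Cdc6, was listed at 0 counts in all 12 libraries, and the cause was not tested. It has no value below, and nothing about its expression is read from the 0.

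RNA-seq was made from 4 groups, each of 3 libraries that the design text names biological triplicates. KO PMA cells are labelled knockout for HP1γ and received PMA (phorbol 12-myristate 13-acetate) at 100 nM, dissolved in DMSO, over 30 min. KO cells are the same line without PMA. HPg PMA cells are labelled as recomplemented with HP1γ and had the same treatment, and HPg cells are that line without PMA. HP1γ, encoded by Cbx3, is a chromatin protein that binds methylated histone H3, and PMA activates protein kinase C. Per the labels, cells were nearly confluent at treatment, and whether untreated cells got DMSO is not stated in the labels. Each genotype is 1 line, so genotype and line cannot be told apart, and the p-values cover only how cultures of a line vary. The labels state neither how HP1γ was put back nor which part of Cbx3 was deleted.

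Cells prepare for S phase in steps. In G1, ORC and Cdc6 with Cdt1 load the MCM2-7 helicase onto origins. Cyclin E with Cdk2 relieves RB's hold on E2F factors, and E2F1 and E2F2 activate transcription of many genes of this group. At S phase entry, Mcm10, Cdc45 and the GINS complex turn the loaded MCM rings into active helicases. DNA polymerase alpha with primase then lays down primers, and RFC loads the PCNA clamp on which the replicative polymerases, Fen1 and Lig1 work. In fibroblasts these mRNAs are low in resting or contact-inhibited cultures and high in cycling ones.

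Promoter sequences are shown for Orc1, Gins3, E2f2 and Pcna, 4 of the genes whose levels differed between the lines in the paired fit described below. Each window runs from 250 bases before to 50 bases after a start of the gene, from RefSeq on GRCm38.p6, 5′ to 3′ on the gene's strand. Capitals mark 2 kinds of short word: the E2F words TTTCCCGC, TTTGGCGC, TTTCGCGC and TTTGCCGC on either strand, and CCAAT or its reverse complement ATTGG, the word read by the factor NF-Y. Orc1 lies at chr4:108579204-108579503 on the plus strand, Gins3 at chr8:95633309-95633608 on the plus strand, E2f2 at chr4:136172024-136172323 on the plus strand and Pcna at chr2:132253131-132253430 on the minus strand.
Orc1: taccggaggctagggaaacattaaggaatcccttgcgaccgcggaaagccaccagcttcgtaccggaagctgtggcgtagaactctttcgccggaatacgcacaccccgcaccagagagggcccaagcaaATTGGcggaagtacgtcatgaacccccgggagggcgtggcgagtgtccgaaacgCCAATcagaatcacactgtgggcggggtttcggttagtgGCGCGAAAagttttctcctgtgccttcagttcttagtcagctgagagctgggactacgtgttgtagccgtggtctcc
Gins3: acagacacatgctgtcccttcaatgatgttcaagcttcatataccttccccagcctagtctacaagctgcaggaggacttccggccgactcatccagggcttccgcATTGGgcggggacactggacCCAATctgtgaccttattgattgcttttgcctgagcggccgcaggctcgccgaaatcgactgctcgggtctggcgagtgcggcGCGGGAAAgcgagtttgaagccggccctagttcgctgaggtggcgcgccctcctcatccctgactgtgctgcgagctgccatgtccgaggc
E2f2: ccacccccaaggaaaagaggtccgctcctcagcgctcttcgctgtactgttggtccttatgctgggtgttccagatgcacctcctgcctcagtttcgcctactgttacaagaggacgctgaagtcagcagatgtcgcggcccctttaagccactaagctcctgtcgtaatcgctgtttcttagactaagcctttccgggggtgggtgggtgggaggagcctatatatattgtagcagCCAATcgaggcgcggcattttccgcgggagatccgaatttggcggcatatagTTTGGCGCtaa
Pcna: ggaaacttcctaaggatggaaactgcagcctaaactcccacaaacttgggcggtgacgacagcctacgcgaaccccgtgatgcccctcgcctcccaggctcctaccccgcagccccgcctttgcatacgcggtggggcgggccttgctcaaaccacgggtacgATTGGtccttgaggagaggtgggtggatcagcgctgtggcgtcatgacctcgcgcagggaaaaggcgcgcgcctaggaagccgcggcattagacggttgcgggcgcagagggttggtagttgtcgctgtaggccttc

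The Orc1 and Gins3 windows and the printed E2f2 window each held 1 E2F word, and the Pcna window held none of these words. The Orc1 and Gins3 windows held 2 CCAAT words each, and the printed E2f2 window and the Pcna window held 1 each. E2f2 had another window, at chr4:136180532-136180831, which held 0 E2F words and 3 CCAAT words and is not shown. The printed E2f2 window was picked because it held an E2F word. Of the 37 genes, 30 had a window in the table, and 12 of the 30 (40.0%) held at least 1 E2F word, against 2.6% of the 27025 genes with a window. The 12 were Cdc6, Cdt1, E2f2, Gins3, Lig1, Mcm3, Mcm5, Mcm6, Mcm7, Orc1, Pola1 and Rfc3, and Mcm6 held 3 such words. CCAAT stood in the windows of 63.3% of the 30 genes and of 41.1% of all genes. Of the 7 genes that the paired fit below called lower in both line comparisons, 3 (42.86%) held an E2F word, near the share of the 30 genes. CCAAT stood in 6 of these 7 (85.7%). A match is a description of letters and not a binding site, and a gene could have more than 1 window.

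The 12 libraries held between 111458145 and 159929347 counts, with 17822 genes detected in HPg library 2 and 19759 to 20656 in the 11 others. Cbx3 had 31.8 ± 4.4 CPM (counts scaled by the TMM-adjusted library total) in KO PMA cells and 36.5 ± 2.2 in KO cells, against 38.6 ± 4.7 in HPg PMA cells and 38.7 ± 2.5 in HPg cells (SD, n = 3 each). The count covers the whole gene, so it does not check the knockout label, and the line is called KO-labelled below. Fibroblast markers summed to 9891 to 17362 CPM across the libraries, led by Col1a1 and Vim, while Thy1 had at most 5 counts and Lum at most 57. Markers of other cell types were present at uneven levels. Epithelial markers summed to 15.8 to 17.3 CPM in KO PMA and 16.5 to 18.6 in KO libraries, against 9.12 to 9.58 in HPg PMA and 10.3 to 11.9 in HPg libraries, with Epcam at 9 counts or fewer. Endothelial markers summed to 15.1 to 19.5 CPM in KO PMA and 15.6 to 23.2 in KO libraries, against 8.66 to 11.3 in HPg PMA and 6.47 to 12.9 in HPg libraries, with Cdh5 at 4 counts or fewer. Blood and immune markers summed to 5.56 to 6.88 CPM in KO PMA and 3.88 to 4.27 in KO libraries, against 3.47 to 5.66 in HPg PMA and 2.54 to 2.99 in HPg libraries. Neural markers summed to 209 to 426 CPM with Tubb3 and Sox2 at 0, most of it Map2, which averaged 193 CPM in KO PMA and 244 in KO cells, against 244 in HPg PMA and 227 in HPg cells. Muscle markers, most of whose sum was Acta1, lay between 21.2 and 79.2 CPM with Myod1 at 0. Several markers were higher in the KO-labelled line by edgeR. Gap43 (1.027 CPM in KO PMA and 1.1 in KO cells, against 0.44 in HPg PMA and 0.273 in HPg cells) and the desmosome gene Dsp (4.72 CPM in KO PMA and 5.86 in KO cells, against 0.717 in HPg PMA and 0.877 in HPg cells) were called in both line comparisons. Ncam1 (58.6 CPM in KO, against 24.1 in HPg cells) and Erg were called without PMA, and Vwf and Des with PMA. With the replicate block described below, Nes (9.57 CPM in KO, against 4.64 in HPg cells), Krt19 and Col3a1 were higher in both line comparisons. Without PMA the block called the fibroblast marker Vim and the endothelial marker Kdr lower in KO cells. Their log2 fold changes with the block were -0.42 ± 0.11 and -1.15 ± 0.32, with adjusted p of 0.0264 and 0.0311. The part of these markers in the results below was not tested. In bulk RNA, fewer cells in S phase and less RNA per cell cannot be told apart.

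Per kilobase of exon, Pcna had the highest level among the 36 genes with PMA: it reached 73.8 ± 7.7 CPM per kilobase in KO PMA cells and 51.9 ± 4.0 in KO cells, against 92.2 ± 9.0 in HPg PMA cells and 67.9 ± 13.1 in HPg cells. Mcm5 was the highest in untreated cells, at 58.0 ± 15.9 CPM per kilobase in KO cells and 80.1 ± 24.2 in HPg cells. The levels of Pcna and Mcm5 lay within their spread of each other in both of those groups. The other MCM2-7 subunits ranged from 11.8 ± 1.1 CPM per kilobase for Mcm2 in KO cells to 46.7 ± 13.4 for Mcm7 in HPg cells. E2f1 reached 4.77 ± 0.74 CPM per kilobase in KO PMA cells and 5.05 ± 0.90 in KO cells, against 6.39 ± 0.25 in HPg PMA cells and 7.26 ± 0.78 in HPg cells. In KO PMA cells E2f2 was the lowest, at 1.00 ± 0.03 CPM per kilobase, next to Ung, the uracil glycosylase, at 1.105 ± 0.31. Lengths come from GENCODE M21 gene models, which may differ from those the authors counted over.

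**Figure D1:**
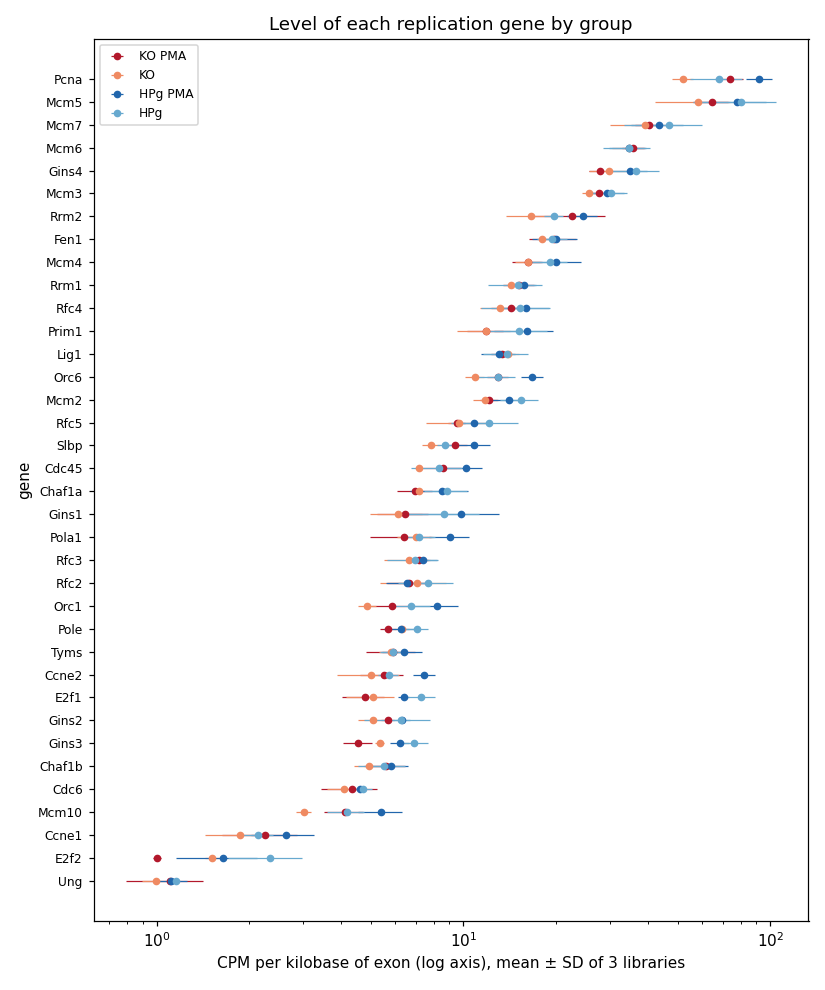
Level of each of the 36 measured genes per group, as CPM per kilobase of exon on a log axis; points are means and lines are SD over 3 libraries. Pcna and Mcm5 stand at the top, Ung and E2f2 at the bottom, and for E2f1 the KO PMA and KO points (4.77 and 5.05) lie left of the HPg PMA and HPg points (6.39 and 7.26).

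KO-labelled cells were compared with HPg cells first without PMA. Of the 36 genes, 34 had a lower fitted level in KO cells, with a median log2 fold change of -0.23 beside 0.009 over all 16630 genes tested. By edgeR's quasi-likelihood test with Benjamini-Hochberg adjustment, 0 of the 36 were called at an adjusted p under 0.05, where 1.32% of all genes were called. At an unadjusted p under 0.05 there were 7 of 36, beside 14.34% of all genes, and the smallest adjusted p was 0.133. DESeq2 called 0 of the 36 as well, where it called 1.85% of all genes lower and 2.81% higher. With the replicate number as a block, since libraries that share a number deviate together, 9 of the 36 (25.0%) were lower and 0 higher, where 5.44% of all genes were called lower. The 9 were E2f1, E2f2, Orc1, Mcm2, Mcm5, Mcm10, Gins3, Pcna and Prim1. Of the 36, 25 (69.4%) were lower in all 3 pairs of libraries that share a number, where 25.5% of all genes were.

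The block's calls depended on single libraries. Without HPg library 2 the block called 13 of the 36, but without HPg library 1 it called 2, without HPg library 3 only E2f1, without KO library 1 it called 3, without KO library 2 it called 4, and without KO library 3 only E2f1. E2f1 alone among the 9 stayed called in each of these 6 fits, with adjusted p between 0.00912 and 0.0382. Of all genes, between 1.41% and 4.42% were called lower in these fits.

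With PMA in both lines, 33 of the 36 had a lower fitted level in KO PMA cells, and the median log2 fold change was -0.21 beside 0.011 over all genes. edgeR called 0 of them, where 2.47% of all genes were called, although 9 of the 36 had an unadjusted p under 0.05, beside 18.42% of all genes. The smallest adjusted p was 0.0815. DESeq2 called Gins3 alone, as lower, 1 of 36 (2.8%) where it called 3.52% of all genes lower. With the replicate block, 12 of the 36 (33.3%) were lower and 0 higher, where 9.09% of all genes were lower. These were E2f1, E2f2, Ccne2, Orc1, Orc6, Mcm10, Gins1, Gins3, Gins4, Pcna, Pola1 and Prim1. Of the 36, 18 were lower in all 3 pairs, where 25.8% of all genes were. Without KO PMA library 1 the block called 0, where 3.76% of all genes were called lower, while leaving out any other library of these groups left between 5 and 13, where 5.12% to 11.9% of all genes were.

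The genes called with the block in both line comparisons were 7, E2f1, E2f2, Orc1, Mcm10, Gins3, Pcna and Prim1, or 77.8% of the 9 and 58.3% of the 12, where 3.04% of all genes were called lower in both. The comparisons use different libraries. The numbers that pair the libraries run through all 4 groups, however, so cultures with 1 number are not independent between them. With GC content and transcript length corrected for as well as the block, 22 of the 36 were lower without PMA, where 16.7% of all genes were, and 17 with PMA, where 14.4% were. That correction also moved all genes down. Their median went from 0.013 with the block alone to -0.094 without PMA, and from 0.009 to -0.051 with PMA.

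**Figure D2:**
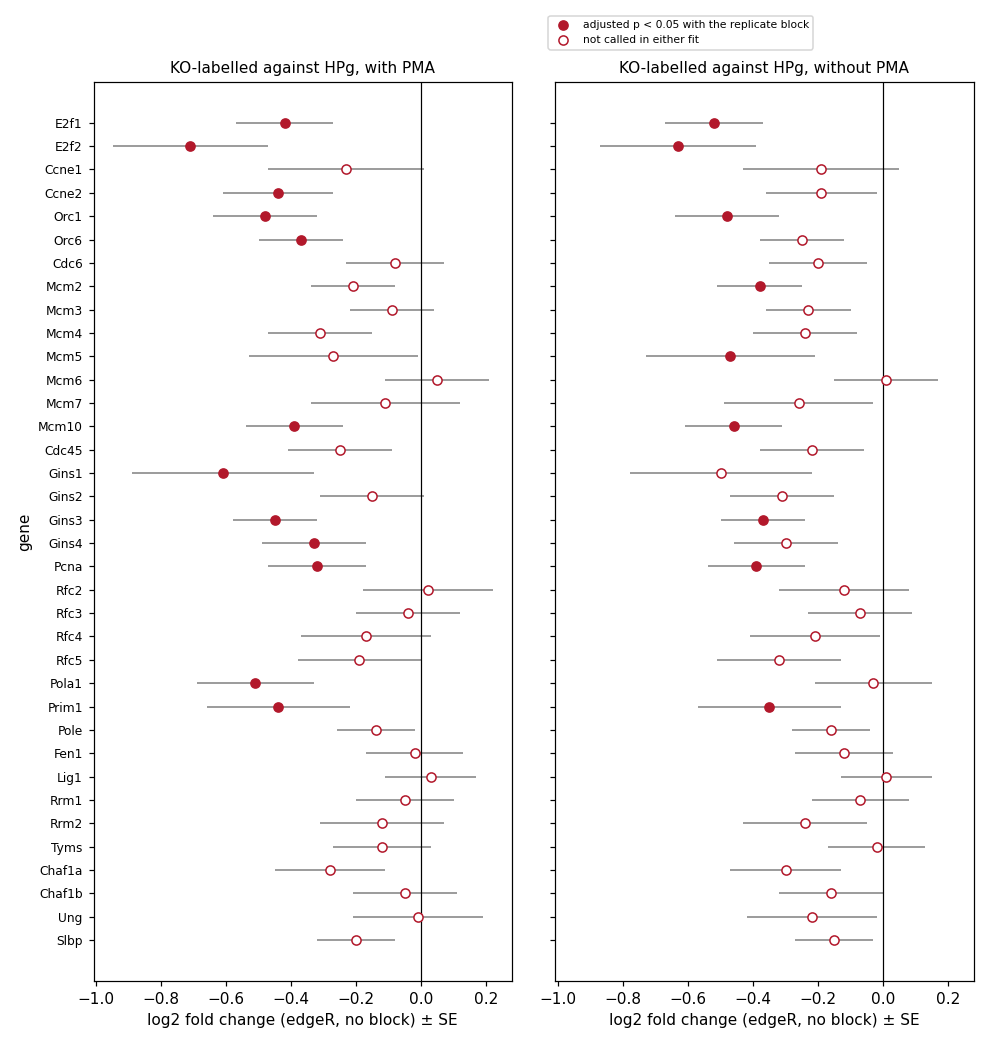
Log2 fold change of KO-labelled against HPg cells for each gene, with PMA at left and without PMA at right, from the edgeR fit without the block; lines are SE. Filled points are genes called with the replicate block (12 with PMA, 9 without); 33 of the 36 points at left and 34 at right lie below 0.

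Among the E2F and cyclin E genes, all 4 lay below 0 in both comparisons. E2f1, an activator of S phase genes, had 12.7, 17.4 and 15.02 CPM in KO PMA libraries and 13.3, 18.9 and 15.6 in KO libraries, against 19.3, 20.3 and 20.8 in HPg PMA libraries and 21.7, 25.8 and 21.3 in HPg libraries. Each KO-labelled library was lower than each HPg library of the same treatment. The log2 fold change was -0.42 ± 0.15 (SE) with PMA and -0.52 ± 0.15 without, with adjusted p of 0.17 and 0.133, or 0.0117 and 0.00497 with the block. With PMA the block's call was lost without KO PMA library 1 and without HPg PMA library 3, and with GC content and length added to the block the log2 fold change was -0.68.

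E2f2, a closely related activator, had 4.72, 5.01 and 4.95 CPM in KO PMA libraries, against 9.23, 5.27 and 9.56 in HPg PMA libraries. Untreated, it had 7.34, 7.05 and 7.81 CPM in KO libraries, against 12.9, 7.91 and 13.6 in HPg libraries. Within each treatment the KO-labelled libraries lay close together and below the HPg libraries, but the number 2 libraries of both HPg groups were much nearer to them than the other 4. The log2 fold changes were -0.71 ± 0.24 with PMA and -0.63 ± 0.24 without, with adjusted p of 0.136 and 0.235, or 0.0187 and 0.0383 with the block, which 4 of the 6 fits without 1 library lost in each comparison.

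Cyclin E binds and activates Cdk2. Ccne2 had 15.6, 20.8 and 21.1 CPM in KO PMA libraries, against 24.0, 28.2 and 26.0 in HPg PMA libraries, and the groups did not overlap. Its log2 fold change with PMA was -0.44 ± 0.17, with adjusted p of 0.185, or 0.0115 with the block; with GC content and length corrected for as well it was -0.28, with adjusted p of 0.0448. Untreated, it had 17.5 ± 4.0 CPM in KO cells and 19.9 ± 1.5 in HPg cells (SD, n = 3 each), and the groups overlapped. Ccne2 shares 17.4% of its exon bases with Ints8 on the opposite strand, and whether counting used the strand is not stated in the sources used here. Ccne1 had 5.996 ± 1.66 CPM in KO PMA cells and 7.03 ± 1.64 in HPg PMA cells, and 4.99 ± 1.15 in KO cells and 5.69 ± 0.69 in HPg cells, and it passed neither fit.

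In origin licensing, Orc1, the ORC subunit whose level is known to cycle, had 17.3, 20.7 and 23.2 CPM in KO PMA libraries, against 27.4, 24.0 and 33.9 in HPg PMA libraries. Untreated, it had 15.9, 16.8 and 18.1 CPM in KO libraries, against 22.5, 20.6 and 27.6 in HPg libraries. No KO-labelled library reached an HPg library of its treatment. The log2 fold change was -0.48 ± 0.16 both with and without PMA, with adjusted p of 0.137 and 0.188, or 0.00711 and 0.0104 with the block. The block's call with PMA was lost only without KO PMA library 1, where the adjusted p was 0.0531; without PMA it was lost without HPg library 3 or KO library 3.

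Orc6, another ORC subunit, had 30.3, 30.9 and 34.8 CPM in KO PMA libraries, against 45.0, 38.4 and 40.7 in HPg PMA libraries. The groups were apart, with a log2 fold change of -0.37 ± 0.13 and adjusted p of 0.138, or 0.018 with the block. Untreated, KO libraries (29.1, 25.4 and 26.3 CPM) and HPg libraries (34.7, 26.9 and 34.3 CPM) overlapped, and the log2 difference of -0.25 ± 0.13 passed neither fit. Cdc6, the licensing ATPase, passed neither fit, at 22.7 ± 4.7 CPM in KO PMA cells and 24.0 ± 1.2 in HPg PMA cells, and 21.3 ± 2.6 in KO cells and 24.6 ± 1.7 in HPg cells.

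The 6 subunits of the MCM2-7 ring come together in a single complex, and edgeR without the block called none of them. Mcm2 had 89.5, 74.8 and 81.4 CPM in KO libraries, against 122, 91.8 and 106.9 in HPg libraries, with no overlap. Mcm5 had 293, 166 and 235 CPM in KO libraries, against 404, 214 and 342 in HPg libraries. The groups overlapped for Mcm5, while within each number the KO library was lower, by 0.37 to 0.54 on the log2 scale. Without PMA, the block called both, with log2 fold changes of -0.38 ± 0.11 for Mcm2 and -0.46 ± 0.12 for Mcm5, and with PMA neither. Mcm2 kept this call in 1 and Mcm5 in 2 of the 6 fits without 1 library. Mcm6 showed the least difference of the 6 genes, at 167 ± 13 CPM in KO PMA and 161 ± 22 in HPg PMA cells, and 162 ± 20 in KO and 161 ± 29 in HPg cells. Its log2 fold changes were 0.05 ± 0.16 with PMA and 0.01 ± 0.16 without. Mcm3, Mcm4 and Mcm7 lay between -0.31 and -0.09 in both comparisons and passed neither fit.

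Among the 6 genes of helicase activation, all lay below 0 in both comparisons, with medians of -0.36 with PMA and -0.34 without. Mcm10, which helps to start the helicase, had 26.4, 33.97 and 34.6 CPM in KO PMA libraries, against 41.4, 34.9 and 48.4 in HPg PMA libraries. Untreated, it had 22.1, 23.0 and 24.7 CPM in KO libraries, against 33.0, 27.2 and 36.0 in HPg libraries. The groups did not overlap in either comparison, though KO PMA libraries 2 and 3 came close to HPg PMA library 2. The log2 fold change was -0.39 ± 0.15 with PMA and -0.46 ± 0.15 without, with adjusted p of 0.195 and 0.183, or 0.0331 and 0.0202 with the block, and 2 of the 6 fits without 1 library kept the call in each comparison.

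The GINS complex has 4 subunits. Gins3 had 10.8, 12.8 and 13.3 CPM in KO PMA libraries, against 16.0, 16.3 and 18.3 in HPg PMA libraries, and 14.9, 14.5 and 13.9 in KO libraries, against 18.8, 16.5 and 20.8 in HPg libraries. The groups were apart in both comparisons. With PMA its log2 fold change was -0.45 ± 0.13 and its adjusted p of 0.0815 was the lowest of the 36 genes, or 0.0118 with the block and 0.0195 by DESeq2. Without PMA it was -0.37 ± 0.13, with adjusted p of 0.193, or 0.0411 with the block, a call that only the fit without HPg library 2 kept. Gins4 had 37.6 ± 3.0 CPM in KO PMA cells and 47.2 ± 6.3 in HPg PMA cells, with no overlap, and adjusted p of 0.299, or 0.026 with the block. Gins1 had 9.74 ± 1.84 CPM in KO PMA cells and 14.9 ± 4.9 in HPg PMA cells. Its log2 fold change of -0.61 ± 0.28 was larger in size than that of Gins3, but the groups overlapped and only the block called it. Gins2 had 23.3 ± 1.1 CPM in KO PMA cells and 25.8 ± 1.7 in HPg PMA cells, and it shares 67.3% of its exon bases with Gse1 on the opposite strand. Cdc45, which binds GINS and MCM, had 30.1 ± 4.2 CPM in KO PMA cells and 35.7 ± 4.6 in HPg PMA cells, and it passed neither fit in either comparison.

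**Figure D3:**
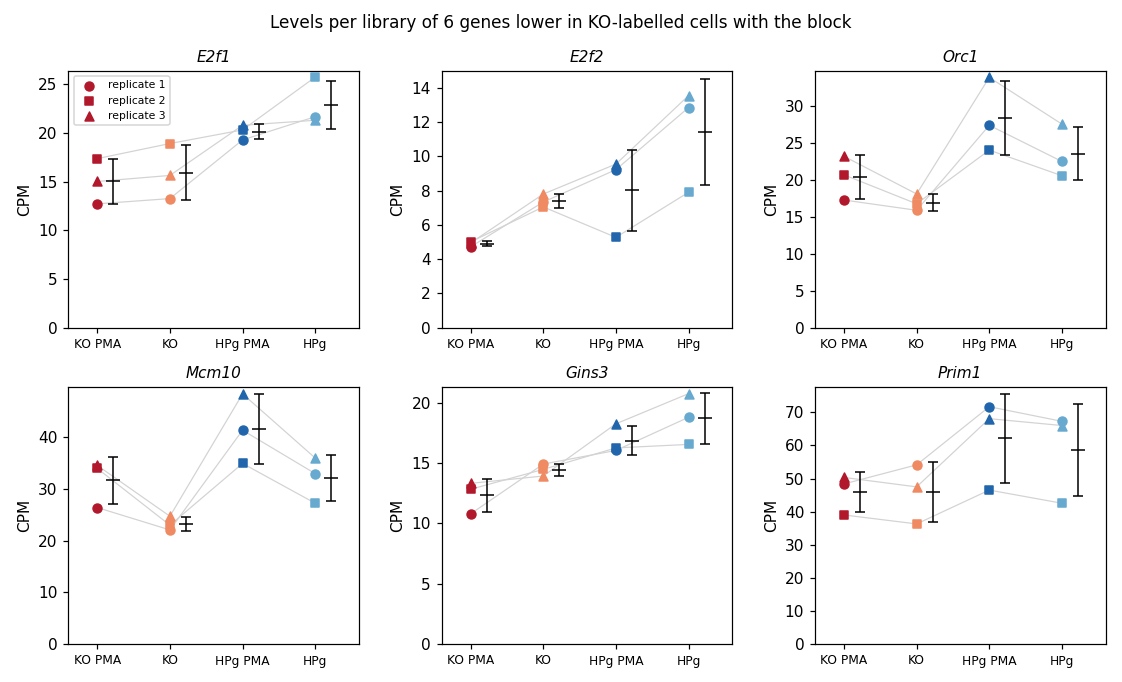
CPM per library for E2f1, E2f2, Orc1, Mcm10, Gins3 and Prim1, all with the y axis from 0; shapes give the replicate number, grey lines join libraries of 1 number, and bars are mean ± SD of 3 libraries. KO-labelled libraries lie below the HPg libraries of their treatment for the first 5 genes, while for Prim1 the number 2 libraries (39.0, 36.3, 46.5 and 42.5 CPM in KO PMA, KO, HPg PMA and HPg) are the lowest of each group.

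Of the 10 genes at the fork, 8 lay below 0 with PMA and 9 without. Pcna, the sliding clamp, had 166, 167 and 199 CPM in KO PMA libraries, against 226, 198 and 240.2 in HPg PMA libraries. Untreated, it had 124, 115 and 134 CPM in KO libraries, against 186, 127 and 176 in HPg libraries. The groups overlapped in each comparison through 1 library each, and in all 3 pairs the KO-labelled library was lower. The log2 fold change was -0.32 ± 0.15 with PMA and -0.39 ± 0.15 without, with adjusted p of 0.291 and 0.265, or 0.0458 and 0.0289 with the block. With PMA the block's call was lost in each of the 6 fits without 1 library, and without PMA only the fit without HPg library 2 kept it.

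Prim1, the catalytic subunit of primase, had 48.4, 39.0 and 50.3 CPM in KO PMA libraries, against 71.7, 46.5 and 68.1 in HPg PMA libraries, and 54.1, 36.3 and 47.5 in KO libraries, against 67.3, 42.5 and 66.0 in HPg libraries. The groups overlapped, and within each number the KO-labelled library was lower. The log2 fold change was -0.44 ± 0.22 with PMA and -0.35 ± 0.22 without, with adjusted p of 0.304 and 0.507, or 0.00661 and 0.0257 with the block. With PMA the block's call of Prim1 was lost only without KO PMA library 1. Without PMA only the fit without HPg library 2 kept it. Pola1 encodes the catalytic subunit of polymerase alpha, which works with primase. It had 46.7, 51.5 and 70.8 CPM in KO PMA libraries, against 85.2, 66.4 and 88.2 in HPg PMA libraries, a log2 fold change of -0.51 ± 0.18 with adjusted p of 0.152, or 0.0104 with the block. Untreated, it had 61.8 ± 8.1 CPM in KO cells and 63.1 ± 8.1 in HPg cells, a log2 fold change of -0.03 ± 0.18. The difference between these 2 was tested by the interaction and did not pass, at -0.48 ± 0.25 with adjusted p of 1, or 0.629 with the block.

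The clamp loader subunits Rfc2, Rfc3, Rfc4 and Rfc5 lay between -0.32 and 0.02 in both comparisons, Fen1 and Lig1, which finish lagging strand fragments, between -0.12 and 0.03, and Pole, of the leading strand polymerase, at -0.14 and -0.16. None of these 7 passed either fit. Fen1 shares 78.8% of its exon bases with Gm10143 on the opposite strand. The nucleotide synthesis genes Rrm1, Rrm2 and Tyms had medians of -0.12 with PMA and -0.07 without. Rrm1 had 168 ± 20 CPM in KO PMA cells and 174 ± 16 in HPg PMA cells. The histone chaperone subunits Chaf1a and Chaf1b, Ung, and Slbp, which binds histone mRNA, lay between -0.30 and -0.01, and none passed either fit. Chaf1a shares 52.5% of its exon bases with Ubxn6 on the opposite strand.

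Without PMA, 7 of the 36 genes had all 3 KO libraries below all 3 HPg libraries, where 8.95% of all genes did: E2f1, E2f2, Orc1, Mcm2, Mcm10, Gins3 and Ung. With PMA there were 9, where 12.4% of all genes did: E2f1, E2f2, Ccne2, Orc1, Orc6, Mcm10, Gins2, Gins3 and Gins4.

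The libraries within a group also differed from each other. Of the 36 genes, 6, 13 and 22 were above their own 12-library median in KO PMA libraries 1, 2 and 3, and 13, 5 and 5 in the KO libraries. In HPg PMA libraries there were 28, 17 and 36, and in HPg libraries 31, 8 and 32. Both HPg number 2 libraries thus held fewer genes above the median than their partners. The number 2 library was the lowest in all 4 groups for 9 genes (Mcm5, Mcm6, Mcm7, Gins4, Rfc2, Rfc3, Rfc4, Rfc5 and Prim1) and the highest in all 4 for Ccne1 and Rrm2. The summed level of 16 genes of G2 and mitosis was 1211, 1024 and 1287 CPM in KO PMA libraries 1, 2 and 3, 1357, 1072 and 1215 in KO libraries, 1769, 1195 and 1610 in HPg PMA libraries and 1629, 1207 and 1524 in HPg libraries. Its lowest library within each group was number 2, while in KO PMA cells the members had the fewest genes above their median in library 1. A list of 12 genes of quiescence and growth arrest summed to 1151 to 1486 CPM in KO PMA libraries and 1289 to 1440 in KO libraries, against 1004 to 1367 in HPg PMA libraries and 1087 to 1440 in HPg libraries. The part of culture density or of cell cycle phase in the line difference was not tested.

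**Figure D4:**
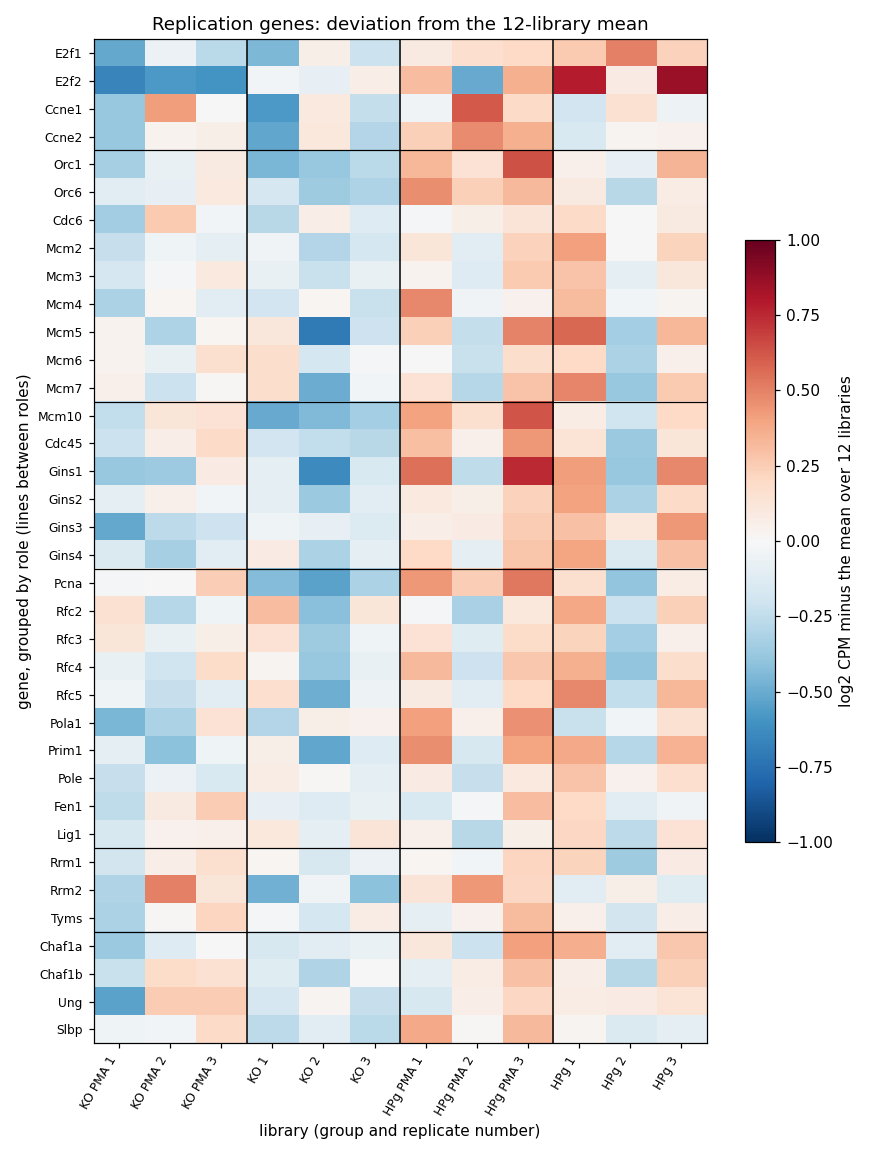
Deviation of each gene from its mean over the 12 libraries in log2 CPM (colour), with genes in rows by role and libraries in columns. In 5 of the 6 KO-labelled columns 13 or fewer of the 36 genes were above their own median, against 22 in KO PMA library 3, and in 4 of the 6 HPg columns 28 or more were, against 17 in HPg PMA library 2 and 8 in HPg library 2.

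PMA was then compared with no treatment in each line, 30 min after it was added. In KO-labelled cells, 24 of the 36 genes had a higher fitted level with PMA and the median log2 fold change was 0.09, beside -0.016 over all genes. edgeR called 0 of the 36, where 4.44% of all genes were called, and 4 of 36 had an unadjusted p under 0.05, beside 15.87% of all genes. DESeq2 called Pcna alone, as higher, 1 of 36 (2.8%) where it called 4.35% of all genes higher. With the block, Mcm10, Pcna and Rrm2 were higher, 3 of 36 (8.3%) where 6.79% of all genes were, and E2f2 was lower, 1 of 36 (2.8%) where 6.56% of all genes were. The share called higher was near that of all genes. All 3 KO PMA libraries lay above all 3 KO libraries for 5 genes, where 10.6% of all genes did so (Orc6, Mcm10, Gins2, Pcna and Slbp), and below for 2, where 11.3% did (E2f2 and Gins3). The block called 5 genes higher without KO PMA library 1 and 2 without KO library 1 or KO library 2. It called Pcna alone as higher without KO library 3, KO PMA library 2 or KO PMA library 3. Between 3.6% and 6.65% of all genes were called higher in these 6 fits. Without KO PMA library 2 the block called E2f2 lower, where 2.04% of all genes were.

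In HPg cells, 21 of the 36 had a higher fitted level with PMA and the median was 0.05, beside -0.023 over all genes. edgeR called 0, where 3.45% of all genes were called, with 6 of 36 at an unadjusted p under 0.05, beside 17.37% of all genes. DESeq2 called 0 of the 36, where it called 2.46% of all genes lower and 4.73% higher. With the block, 4 of 36 (11.1%) were higher, where 8.62% of all genes were: Ccne2, Orc6, Mcm10 and Pcna. The block called 0 lower, where 6.19% of all genes were. Without HPg library 2 or without HPg library 3 it called none of these 4. Without HPg library 2 it called E2f2 as lower, where 1.83% of all genes were. Without HPg PMA library 1 or 3 it called Orc6 and Pcna, and without HPg PMA library 2 it called 7 genes. Of all genes, between 4.69% and 8.77% were called higher in the 6 fits without 1 library. All 3 HPg PMA libraries lay above all 3 HPg libraries for Ccne2, Orc6, Pcna and Rrm2, 4 genes where 12.3% of all genes did so, and below for 1, E2f1, where 10.3% did.

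Pcna had the clearest PMA difference. The KO PMA libraries (166, 167 and 199 CPM) were all above the KO libraries (124, 115 and 134 CPM), a log2 fold change of 0.51 ± 0.15, or 1.42-fold, with adjusted p of 0.0945, or 0.00496 with the block. The block kept this call without any 1 library, with adjusted p between 0.00385 and 0.0466. In HPg cells, the HPg PMA libraries (226, 198 and 240.2 CPM) were all above the HPg libraries (186, 127 and 176 CPM), a log2 fold change of 0.44 ± 0.15, or 1.36-fold, with adjusted p of 0.152, or 0.0111 with the block. Without HPg library 2 the block gave 0.34 with adjusted p of 0.0797. Pcna has processed pseudogenes, of which Pcna-ps2 held 566 counts over all libraries and Pcna-ps1 4, against 13820 or more for Pcna in each library.

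Mcm10 was 1.36-fold higher in KO PMA than in KO cells and 1.3-fold higher in HPg PMA than in HPg cells, with adjusted p of 0.0217 and 0.0445 with the block. The first call was kept in 2 of 6 fits without 1 library, and so was the second. Rrm2, the small subunit of ribonucleotide reductase, had 45.8, 80.4 and 61.7 CPM in KO PMA libraries, against 40.5, 55.3 and 42.6 in KO libraries, and 61.7, 76.6 and 65.5 in HPg PMA libraries, against 52.4, 59.0 and 52.1 in HPg libraries. In each number the treated library was higher. With the block, its log2 fold change was 0.43 ± 0.11 in KO-labelled cells with adjusted p of 0.0182, kept in 2 of 6 fits without 1 library, and 0.31 ± 0.11 in HPg cells with adjusted p of 0.0667.

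Orc6 had 30.3, 30.9 and 34.8 CPM in KO PMA libraries, against 29.1, 25.4 and 26.3 in KO libraries, and 45.0, 38.4 and 40.7 in HPg PMA libraries, against 34.7, 26.9 and 34.3 in HPg libraries. Treated and untreated libraries were apart in both lines. With the block the adjusted p was 0.11 in KO-labelled and 0.0192 in HPg cells. Ccne2 was 1.31-fold higher in HPg PMA than in HPg cells, with adjusted p of 0.028 with the block, and 1.1-fold in KO PMA against KO cells, with 0.449. In HPg cells 4 of the 6 fits without 1 library lost the block's call for Ccne2 and 2 lost that for Orc6. With GC content and length corrected for as well as the block, both calls were lost in HPg cells: the log2 fold change of Ccne2 was 0.14, against 0.39 with the block alone, with adjusted p of 0.368, and that of Orc6 was 0.25, against 0.38, with adjusted p of 0.0519.

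**Figure D5:**
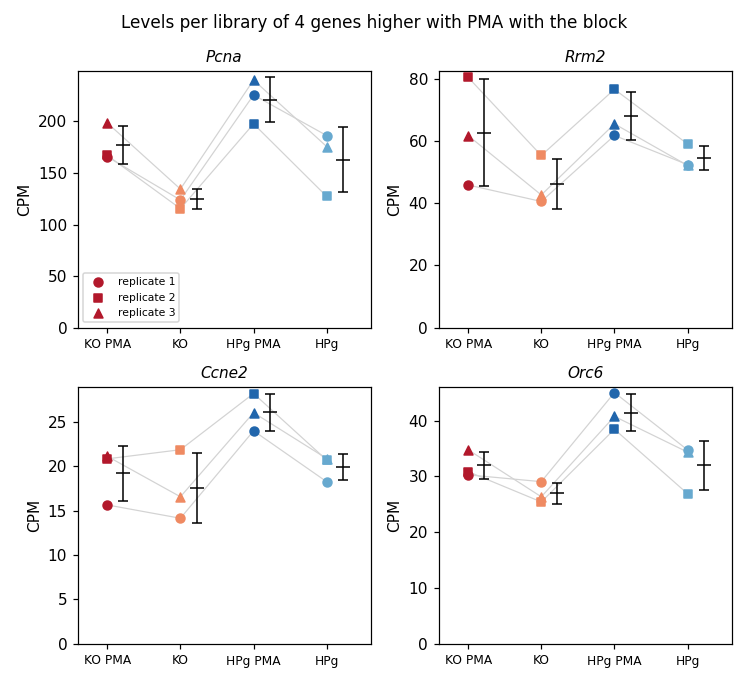
CPM per library of Pcna, Rrm2, Ccne2 and Orc6, with the y axis from 0; shapes give the replicate number, grey lines join libraries of 1 number, and bars are mean ± SD of 3 libraries. Pcna lay higher with PMA in all 3 pairs of each line, at 177 ± 19 in KO PMA against 125 ± 10 CPM in KO, and 221 ± 22 in HPg PMA against 163 ± 32 CPM in HPg.

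E2f2 went the other way from the genes above. Its KO PMA libraries (4.72, 5.01 and 4.95 CPM) were all below the KO libraries (7.34, 7.05 and 7.81 CPM), a log2 fold change of -0.60 ± 0.24, with adjusted p of 0.221, or 0.0396 with the block, which only the fit without KO PMA library 2 kept. In HPg cells the treated library was lower in each number, by 0.48 to 0.58 on the log2 scale, with a log2 fold change of -0.51 ± 0.24 and adjusted p of 0.285, or 0.0591 with the block. E2f1 had smaller differences, at -0.08 ± 0.15 in KO-labelled cells and -0.19 ± 0.15 in HPg cells, and passed neither fit.

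No difference in the PMA response between the lines was found among the 36 genes. The interaction, the PMA response in KO-labelled cells minus that in HPg cells, had a median log2 value of 0.03, beside 0.016 over all genes. edgeR called 0 of the 36 and 0% of all genes, with or without the block, and DESeq2 called 0 of the 36 and 1 of all genes. At an unadjusted p under 0.05 there were 0 of 36 without the block, beside 1.97% of all genes, and 1 of 36 with it, Pola1, beside 7.67% of all genes. The SE of the interaction lay between 0.17 and 0.40 on the log2 scale, so a difference in response of that size could not be told from 0 with these libraries. Larger differences could be missed too, since the p-values were adjusted over all genes tested.

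Other genes of the pathway gave the following. With the block, 9.09% of all genes were called lower and 9.49% higher in KO PMA against HPg PMA cells. In KO against HPg cells 5.44% were called lower and 7.08% higher. Among 11 other genes of the E2F and RB network, edgeR called 0 in each comparison. With the block, 2 of the 11, E2f7 and Rbl1, were lower in KO PMA against HPg PMA cells. In KO against HPg cells 4 of the 11 were, E2f4, E2f7, E2f8 and Tfdp1. Of 15 G1 cyclins, kinases and inhibitors, Cdk2, the kinase partner of cyclin E, was called in KO against HPg cells. It had 57.4 ± 5.3 CPM in KO cells and 83.5 ± 5.3 in HPg cells, a log2 fold change of -0.54 ± 0.10 with adjusted p of 0.0257. With PMA in both lines edgeR called 0 of the 15. With the block 4 of the 15, Cdk2, Cdk6, Cdkn2c and Fbxo5, were lower in KO PMA cells and 2, Ccnd1 and Cdkn1a, higher. In KO against HPg cells the block called 2 of the 15 lower, Cdk2 and Cdkn2c. Cdk2 was also higher with PMA in KO-labelled cells, at 78.9 ± 4.4 CPM in KO PMA cells, with adjusted p of 0.0259. The calls of Cdk2 in KO against HPg cells and in KO PMA against KO cells use the same KO libraries, so they are not independent. Cdkn1a, which encodes the p21 inhibitor of Cdk2, rose with PMA in both lines, with 34.8 ± 5.9 CPM in KO PMA and 9.37 ± 1.96 in KO cells, and 21.3 ± 3.6 in HPg PMA and 7.495 ± 1.0 in HPg cells (adjusted p of 0.000119 and 0.000982).

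Among 15 other origin and licensing genes, 13 lay below 0 in KO PMA against HPg PMA cells and 12 in KO against HPg cells. Mcm9, an MCM paralog that acts in recombination, fell to 27.5 ± 1.6 CPM in KO PMA cells, against 51.1 ± 5.7 in HPg PMA cells, with adjusted p of 0.00654. Orc4 fell to 41.3 ± 3.5 CPM in KO PMA cells, against 58.6 ± 3.7 in HPg PMA cells, with adjusted p of 0.049, and it rose with PMA in HPg cells, where the untreated level was 39.8 ± 4.8 CPM, with adjusted p of 0.0273. Both calls of Orc4 use the same HPg PMA libraries, so they are not independent. With the block, 7 of the 15 were lower in KO PMA against HPg PMA cells, where 9.09% of all genes were. They were Dbf4, Mcm8, Mcm9, Orc2, Orc3, Orc4 and Ticrr. In KO against HPg cells 1 of the 15, Mcm9, was lower with the block, where 5.44% of all genes were. Among 21 other fork and polymerase genes, 18 lay below 0 in each line comparison. Dna2, a nuclease that trims flaps on lagging strand fragments, fell in both, to 6.07 ± 0.61 CPM in KO PMA cells, against 13.1 ± 2.3 in HPg PMA cells, and to 6.88 ± 0.21 in KO cells, against 12.9 ± 2.4 in HPg cells (adjusted p of 0.0081 and 0.0245). Clspn, a fork protein of the checkpoint, fell to 18.8 ± 3.6 CPM in KO PMA cells, against 32.4 ± 7.0 in HPg PMA cells, with adjusted p of 0.0404. With the block, 3 of the 21 were lower in KO PMA against HPg PMA cells, Clspn, Dna2 and Timeless, where 9.09% of all genes were. In KO against HPg cells 5 of the 21 were, Chtf18, Clspn, Dna2, Rpa2 and Timeless, where 5.44% of all genes were. Top1, a topoisomerase, rose with PMA in both lines, with 89.7 ± 18.6 CPM in KO PMA and 53.7 ± 8.6 in KO cells, and 106.2 ± 9.0 in HPg PMA and 57.8 ± 3.5 in HPg cells (adjusted p of 0.021 and 0.0114). Without the block, the calls of Mcm9 and Cdkn1a held in each of the 6 fits without 1 library, while those of Cdk2, Orc4, Dna2, Clspn and Top1 were each lost in 2 or more of the 6, and that of Orc4 in KO PMA against HPg PMA cells in all 6. A fit of the 2 groups alone lost these calls too, except Dna2 in KO PMA against HPg PMA cells and Top1 in HPg cells.

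Of 9 other nucleotide synthesis genes and 15 other genes of chromatin duplication and S phase repair, edgeR called 0 in every comparison. With the block, 3 of the 15 in the second list, Asf1a, Nasp and Usp1, were lower in KO PMA against HPg PMA cells, where 9.09% of all genes were. In KO against HPg cells the block called 0 of these 15. Of 16 genes of G2 and mitosis, all lay below 0 in KO PMA against HPg PMA cells, with a median of -0.25, and 13 in KO against HPg cells, with a median of -0.25. edgeR called 0 of them. With the block 3 of the 16, Bub1, Cdk1 and Ttk, were lower with PMA, where 9.09% of all genes were. Without PMA 4 of the 16 were, Aurka, Cdc20, Cdk1 and Plk1, where 5.44% of all genes were. Of 12 genes of quiescence and growth arrest, 9 lay above 0 in each line comparison, with medians of 0.28 with PMA and 0.16 without, and edgeR called 0. With the block Sesn1 was lower and Gas2 higher in both line comparisons, and with PMA Rgcc and Klf9 were higher and Foxo3 lower. Without PMA that was 1 of the 12 lower and 1 higher, near the shares of all genes, 5.44% and 7.08%. With PMA it was 2 of the 12 lower and 3 higher, where 9.09% and 9.49% of all genes were.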

How the data were processed

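Strand-specific total RNA libraries depleted of ribosomal RNA were sequenced as paired ends, per the labels' protocols. The authors deposited 1 table of raw counts per gene, whole numbers with no normalization. The submitters' processing notes name STAR 2.5.0a, cutadapt 1.11, Subread and featureCounts 1.4.6-p3, on build mm9. No source used here states the annotation, whether counting was stranded, or whether it took fragments, so values of genes that overlap on opposite strands are uncertain. Symbols, exon lengths and GC content came from GENCODE M21 (GRCm38), which gave 32620 of 37310 genes a symbol; promoters came from RefSeq (GRCm38.p6).

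Genes were kept by filterByExpr (minimum count 10, minimum total 15), which left 16630, and tested with the edgeR 4.0.16 quasi-likelihood F-test (robust, TMM factors, R 4.3.3). All 12 libraries entered 1 fit with a coefficient per group and 5 comparisons. P-values were adjusted by Benjamini-Hochberg over all genes tested, and an adjusted p under 0.05 was called. An exact permutation of 3 against 3 libraries cannot go below 0.1. CPM use TMM library sizes. All replicates differed by more than sampling noise (chi-square over degrees of freedom at least 104.1). The script was tested on simulated data that held no shared effect of the replicate numbers, so the blocked fit was not tested under such pairing.

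Replicate numbers pair the samples: after the group means were taken away, all 18 same-number pairs of libraries were correlated (0.128 to 0.521), and 36 different-number pairs ranged between -0.487 and 0.156. Taking away the group means ties the deviations within a group, so positive same-number correlations push the different-number ones down. The second range is therefore not separate from the first. This pairing comes from the data, and the labels do not state what the numbers stand for. For members the blocked value stands beside each result it changes, except that of Gins1. Most marker and pathway genes called with the block are named without it. Alternatives were DESeq2 1.42.0, other scaling factors, other filters, GC content and length, the 2 groups alone, and each library left out, also with the block, the last of these added after seeing the data.

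The genes, the lists and the tests were chosen with earlier results of these data known. Statistics are given for members called with or without the block and for pathway genes called without it. Pathway genes called with the block alone are named for the line comparisons, without statistics. Blocked calls of pathway genes for PMA against no treatment are not reported here. Other members and genes were named after their values were seen. A blocked result of the nucleotide synthesis list is not reported here.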

Additional observations from a re-analysis of the deposited data

How the results depend on the processing

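No member was called by edgeR in any of the 5 comparisons under other scaling factors or other filters, nor in the 4 between 2 groups when those groups were fitted alone. The count moved under the following settings, and the cause was not tested. For KO against HPg cells it was 9 with the replicate block, 3 with GC content and length and 22 with both, all lower. Of all genes, 5.44%, 2.77% and 16.7% were called lower there. For KO PMA against HPg PMA cells it was 12, 2 and 17, and 1 with DESeq2, all lower. Of all genes, 9.09%, 2.63%, 14.4% and 3.52% were called lower there. For HPg PMA against HPg cells it was 4 with the block and 2 with the block, GC content and length, all higher. Of all genes, 8.62% and 7.02% were called higher there. For KO PMA against KO cells it was 4 with the block, 1 with GC content and length, 6 with both and 1 with DESeq2. These were higher, except E2f2, which was lower with the block and with both. Of all genes, 6.79%, 3.86%, 9.65% and 4.35% were called higher, and 6.56% and 7.85% lower with the block and with both. With 1 library left out and no block, the count stayed at 0, except for KO PMA against HPg PMA cells, where it ranged from 0 to 1. That 1 was E2f2, lower without HPg PMA library 2, where 1.63% of all genes were. With the block and without libraries 1, 2 and 3 in turn, the count for KO against HPg cells was 3, 4 and 1 for the KO libraries and 2, 13 and 1 for the HPg libraries. For KO PMA against HPg PMA cells it was 0, 11 and 7 for KO PMA and 8, 13 and 5 for HPg PMA libraries. For HPg PMA against HPg cells it was 2, 7 and 2 for HPg PMA and 5, 1 and 0 for HPg libraries. For KO PMA against KO cells it was 5, 2 and 1 for KO PMA and 2, 2 and 1 for KO libraries. Of all genes, these fits called 1.41% to 4.42% lower without PMA and 3.76% to 11.9% lower with PMA between the lines. They called 4.69% to 8.77% of all genes higher with PMA in HPg cells, and 3.6% to 6.65% in KO-labelled cells. The PMA counts include E2f2 as lower without HPg library 2 and without KO PMA library 2, where 1.83% and 2.04% of all genes were. With 1 library left out, blocked or not, the medians of the 4 comparisons ranged from -0.34 to -0.14, from -0.31 to -0.11, from -0.08 to 0.16 and from -0.02 to 0.21, so the PMA medians changed sign, and from -0.07 to 0.15 for the interaction. The interaction of Ccne2 was -0.26, but 0.07 with GC content and length and 0.09 with the block added. Scaling by library size alone moved the median of all genes in KO PMA against KO cells to -0.142 and that of the members to -0.04, so the members stayed above the median of all genes. Each library held at least 111458145 counts, and how far this depth limited the calls was not tested.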
